A study of Homo sapiens with 4 samples.

Results

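The matrix metalloproteinases, the ADAMTS proteases and their inhibitors, the TIMPs, were described in parental SUM159 cells and in NOS2KO clones of the same line. They were taken as every protein-coding gene of the deposited tables whose GENCODE release 29 symbol is MMP, ADAMTS or TIMP followed by its number, which gave 46 of 57500 genes, namely 23 MMP genes, 19 ADAMTS genes and 4 TIMP genes. RNA-sequencing was available for 1 library of parental cells and for 3 libraries of NOS2KO cells, 1 for each of the clones numbered 1, 5 and 6. SUM159 is a human breast cancer line grown here in medium with fetal bovine serum. The NOS2KO cells were transfected with double nickase plasmids against NOS2, the gene of the inducible nitric oxide synthase iNOS, and were selected with puromycin. Clones were then chosen by immunoblots for iNOS and by an assay of nitrite and nitrate. The study reported that iNOS protein was absent from its NOS2KO clones and that nitrite and nitrate were reduced. The parental cells are labelled as the control and whether they received any plasmid was not given in the sources used here, so transfection, puromycin selection and growth from a single clone cannot be told apart from the loss of NOS2.

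The libraries held between 90467395 and 122171287 counts on genes. NOS2 mRNA had 2 counts in parental cells against 3 in clone 1, 18 in labelled clone 5 and 1 in clone 6, and is therefore no check of the knockout at this depth. The wording "labelled clone 5" is kept because of the 18 counts, which cannot tell whether that library is a full knockout. Markers of the labelled line were mixed. The mesenchymal VIM had 1655 CPM, counts relative to the TMM-scaled library size, in the parental library and 3855, 2890 and 3339 in the clones. ZEB1, also mesenchymal, went the other way, with 83.7 CPM in the parental library and 39.5, 50.0 and 57.8 in the clones. Neither met the criterion defined below. The mesenchymal FN1 lay between 2155 and 3006 CPM and CDH2 between 109.2 and 182.7. The epithelial keratin KRT8 lay between 253.9 and 806.5 CPM and KRT18 between 303 and 467.3. EPCAM and CDH1 were at most 0.284 and 0.413 CPM, and the hormone receptor genes ESR1 and PGR were at most 0.741 and 0.028 CPM. Of 4 leukocyte and endothelial markers, 1, PTPRC, met the criterion defined below as higher, which 4.24% of all tested genes did. PTPRC had 4.45 CPM in the parental library and 41.7 to 105.4 in the clones. The other leukocyte marker, CD68, was at most 0.294 CPM. The endothelial PECAM1 had 16.1 CPM in the parental library and 13.9, 7.06 and 8.64 in the clones, and VWF was at most 3.80 CPM. The 4 markers summed to 20.9 CPM in the parental library and to 52.8 to 116.4 in the clones, a rise mostly of PTPRC. Their part in the results on metalloproteinases was not tested. In bulk libraries, fewer cells with a transcript and less of it per cell cannot be told apart.

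Matrix metalloproteinases are zinc proteases, secreted or held at the membrane, that are made as inactive proenzymes and together cleave most proteins of the extracellular matrix. The ADAMTS proteases are secreted relatives with thrombospondin repeats that cut proteoglycans, process procollagens or cut single targets such as COMP and von Willebrand factor. TIMPs bind the active site of these enzymes, and TIMP2 also takes part in activation of MMP2 at the cell surface by MMP14.

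Most of the message of these genes came from a few of them. In the text, levels of these genes were ranked, summed and set in ratio to each other per kilobase of exon length. On that scale MMP2 was the highest gene in the parental library with 142.2 CPM per kb, followed by TIMP1 with 110.6, TIMP3 with 94.9 and TIMP2 with 33.5. MMP2 made up 85.9% of the summed MMP level in parental cells against 81.4% in clone 1, 93.6% in labelled clone 5 and 93.0% in clone 6. No single ADAMTS gene was so dominant, since the highest was ADAMTS12 in the parental library with 25.6% of the summed ADAMTS level, ADAMTS1 in clone 1 with 27.4%, ADAMTS7 in the library labelled clone 5 with 35.4% and ADAMTS1 in clone 6 with 47.3%. At the other end, 14 of the 46 genes were under 1 CPM in every library, and TIMP4, MMP20 and MMP27 had no count at all. A count of 0 allows up to 3 counts, or 0.0262 to 0.0332 CPM in these libraries.

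**Figure D1:**
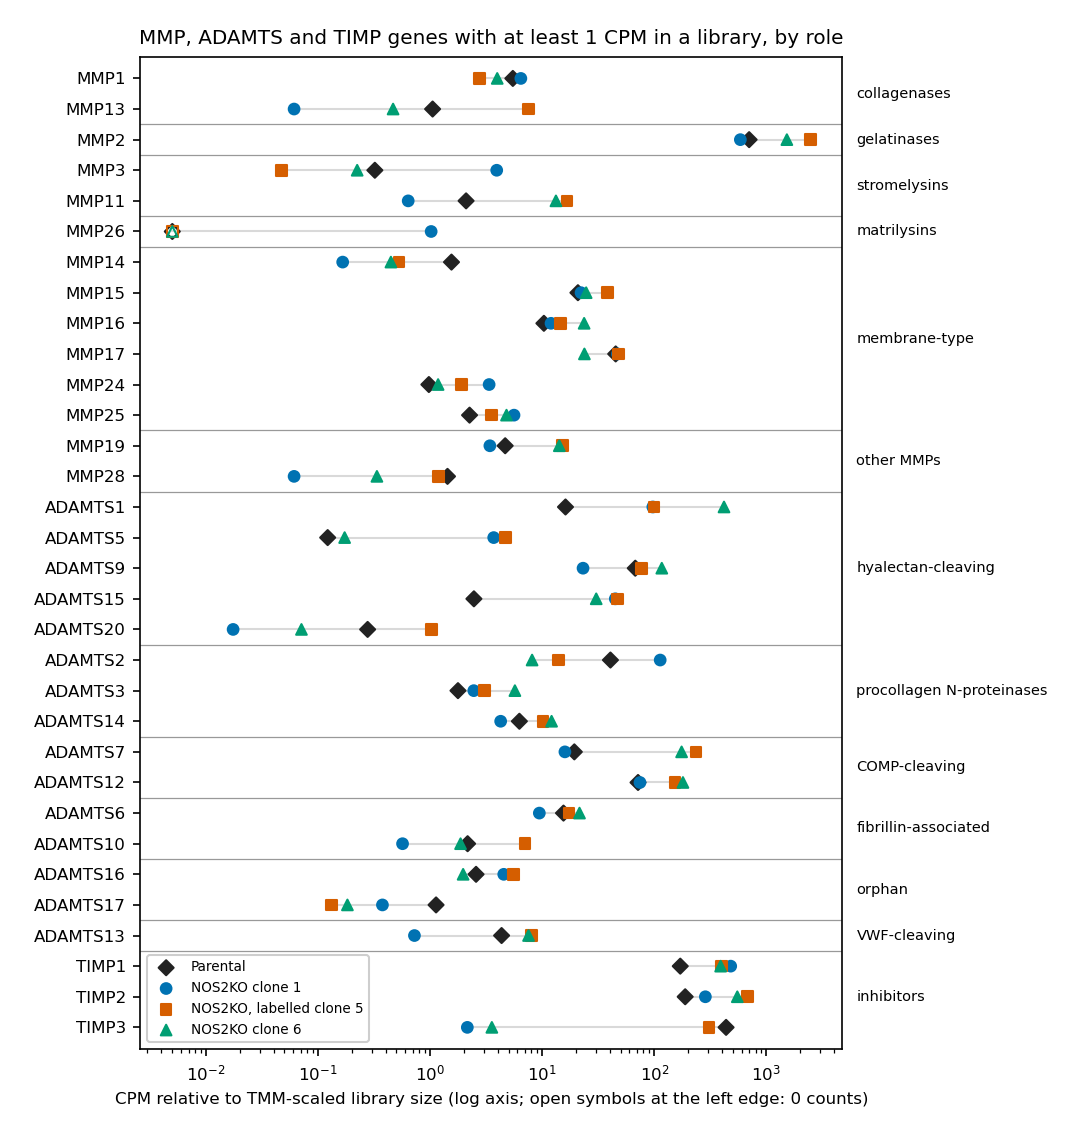
CPM of the 32 genes that reached 1 CPM, on a log axis and grouped by role. The values are not divided by exon length. Each gene has 1 point for each library (parental, clone 1, labelled clone 5, clone 6). MMP2 and the TIMPs lie at the high end, and the points of TIMP3 split into a high pair (436.8 CPM parental, 308.6 labelled clone 5) and a low pair (2.14 clone 1, 3.55 clone 6).

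The comparison of the 3 clones with the parental library asked which of these genes moved with the loss of NOS2. Each gene was fitted with edgeR's quasi-likelihood test over the 22511 genes that passed a filter on low counts, of which 39 of the 46 genes were part. No MMP, ADAMTS or TIMP gene had an adjusted p under 0.05, a level that 0.00444% of all tested genes reached, so none is called changed at that level, and 5 of the 39 (12.8%) had an unadjusted p under 0.05 beside 11.5% of all tested genes. By the looser criterion of the study, an unadjusted p under 0.05 with a log2 fold change above 1 or below -1, ADAMTS1, ADAMTS15 and TIMP1 were higher in the clones, which is 3 of 39 (7.69%) beside 4.24% of all tested genes. ADAMTS17 and MMP14 were lower, 2 of 39 (5.13%) beside 5.34%. With DESeq2's Wald test, ADAMTS1, ADAMTS15, MMP26 and TIMP1 had an adjusted p under 0.05 and were higher, 4 of 33 genes with an adjusted p beside 3.13% of all genes, and 0 of 33 were lower beside 3.05%. Of the 39 genes, 31 (79.5%) had a fitted log2 fold change above 0, beside 54.4% of all tested genes, and the median was 1.05, against 0.10 for all tested genes. That share and that median are descriptions only, since MMP26 and MMP10 passed the filter through clone 1 alone. ADAMTS4, ADAMTS18, MMP7, MMP12 and MMP23B also passed it only through clones, with at most 8 counts in the parental library. Of these genes, MMP23B alone had a fitted value below 0 (-0.27).

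The count of higher genes depended on clone 1, and the lower genes depended on labelled clone 5 and clone 6. Without clone 1, the criterion was met by 10 of 36 genes (27.8%) that were higher, the original 3 with ADAMTS4, ADAMTS7, ADAMTS12, MMP2, MMP11, MMP19 and TIMP2, beside 8.18% of all genes in that fit. Without clone 6, 0 of 39 genes were lower by the criterion, beside 3.72% of all genes. Without labelled clone 5, 2 of 38 (5.26%) were lower, beside 4.63%, but they were MMP9 and TIMP3 in place of ADAMTS17 and MMP14. With 1 parental library, an exact permutation of a single gene over the 4 libraries cannot give a p under 0.25, and the spread in the fit comes from the clones alone.

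Each clone was also set against the parental library by its ratio of CPM, without a test. Of the 28 genes with at least 1 CPM in each pair, ADAMTS1, ADAMTS15 and TIMP1 were past a log2 ratio of 1 upward in every clone, 3 of 28 (10.7%) beside 4.51% of all such genes, and ADAMTS17 and MMP14 were past it downward, 2 of 28 (7.14%) beside 6.46%. These are the genes that met the criterion. Without clone 1, 9 of 28 genes (32.1%) were more than doubled in both other clones, beside 9.28% of all such genes. Without the library labelled clone 5, 5 of 28 (17.9%) were below -1 in both others, beside 8.04%, with MMP13, MMP28 and TIMP3 added. The 3 ratios share the parental library and are not independent.

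The clones differed in how many genes lay above the parental level. In clone 1, 9 of 31 genes (29%) were above a log2 ratio of 1 beside 13.4% of all genes, and 9 of 31 were below -1 beside 15.4%. In the library labelled clone 5, 14 of 30 (46.7%) were above it beside 15.0%, and 3 of 30 (10.0%) below beside 13.5%. In clone 6, 12 of 28 (42.9%) were above it beside 14.0%, and 6 of 28 (21.4%) below beside 13.7%. Of the 32 genes that reached 1 CPM in any of the 4 libraries, 11 were above the parental library in every clone, 10 in 2 clones, 7 in 1 clone and 4, which were TIMP3, MMP14, ADAMTS17 and MMP28 (epilysin), in no clone. With scaling by library size alone, ADAMTS12 and MMP17 lost 1 clone each in that count, and the other scalings moved no gene. No share of all genes stands beside this count of directions, which includes differences within counting error. In clone 6 the interval for counting error spanned 0 for ADAMTS5 (-0.68 to 1.74) and MMP24 (-0.14 to 0.69), both among the 11. In the library labelled clone 5 it did so for MMP28 (-0.64 to 0.09), among the 4.

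**Figure D2:**
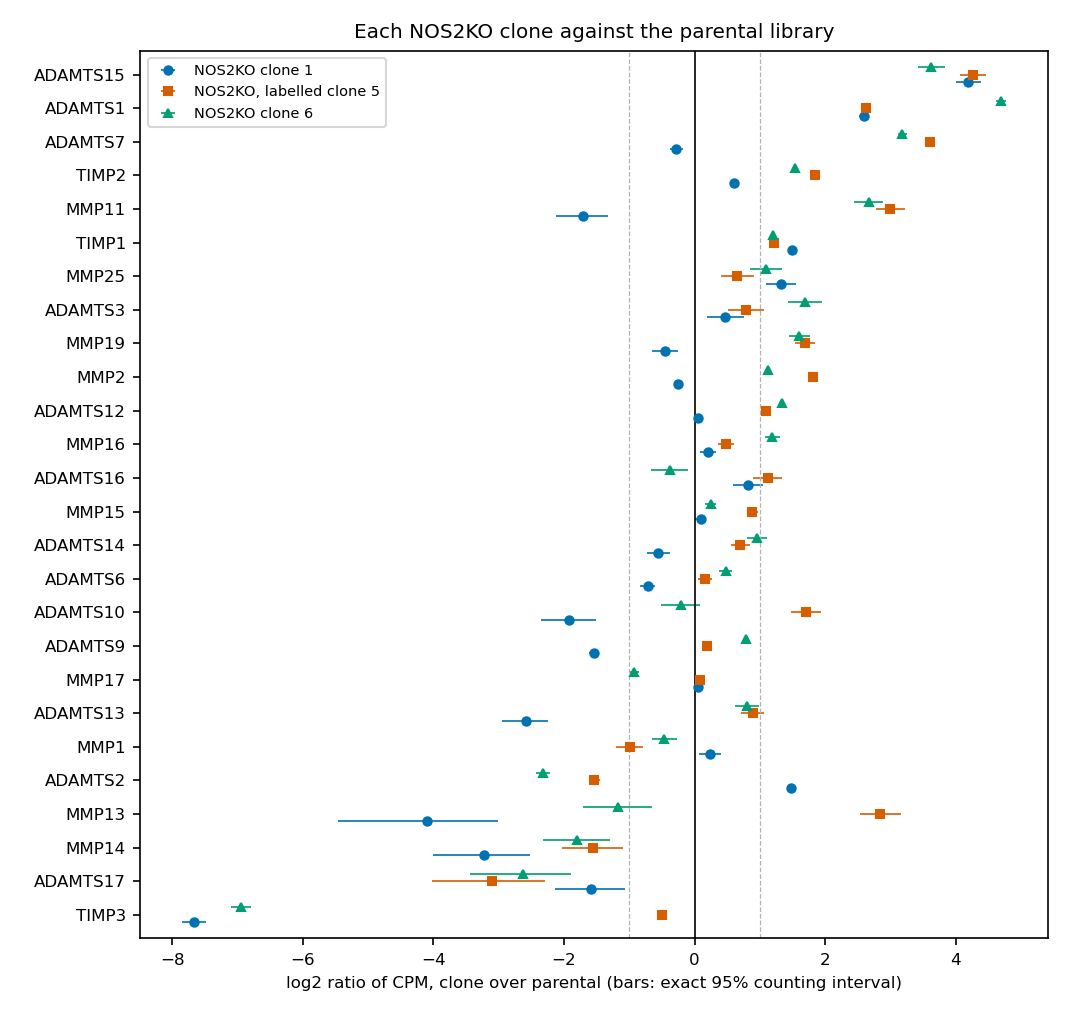
Log2 ratio of CPM of each clone to the parental library (x axis) for the 26 genes that reached 5 CPM in a library or met the criterion, with bars for the exact 95% counting interval and dashed lines at -1 and 1. ADAMTS15, ADAMTS1 and TIMP1 lie right of 1 in all 3 clones, MMP14 and ADAMTS17 left of -1, and TIMP3 spans from -7.67 in clone 1 to -0.50 in the library labelled clone 5.

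Among the inhibitors, TIMP1 was higher in every clone and TIMP3 was far lower in clones 1 and 6 alone. TIMP1 (ENSG00000102265, chromosome X of GRCh38 from 47582313 to 47586789), a secreted inhibitor of most MMPs, had 170.4 CPM in parental cells against 480.4 in clone 1, 395.9 in labelled clone 5 and 390.6 in clone 6. The clones thus lay close together, at 422.3 ± 50.4 CPM (SD, n = 3), and none overlapped the parental level, with log2 ratios of 1.5, 1.22 and 1.20. The fitted log2 fold change was 1.31 (SE 0.31). Its adjusted p was 0.337 with edgeR and 0.0156 with DESeq2, and it ranged from 0.0156 to 0.746 over the other settings of the tests, those without a clone included.

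TIMP2 (ENSG00000035862, chromosome 17 from 78852977 to 78925387) had 188.5 CPM in parental cells against 285.4 in clone 1, 677.4 in labelled clone 5 and 550.2 in clone 6. It was above the parental level in each clone, by 0.60 on the log2 scale in clone 1 and by 1.85 and 1.54 in the others, and the fitted log2 fold change of 1.42 (SE 0.55) had an edgeR adjusted p of 0.464. Overlapping genes on both strands share 10.03% of the exon bases of TIMP2. TIMP4 had no count.

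TIMP3 (ENSG00000100234, chromosome 22 from 32801701 to 32863043), the TIMP that binds to the extracellular matrix and also inhibits ADAM17 and several ADAMTS proteases, had 39485 counts in parental cells against 246 in clone 1, 32901 in labelled clone 5 and 350 in clone 6. This is 436.8 CPM against 2.14, 308.6 and 3.55. The log2 ratio was -7.67 (95% counting interval -7.86 to -7.49) in clone 1, -0.50 (-0.52 to -0.48) in the library labelled clone 5 and -6.94 (-7.10 to -6.79) in clone 6. The parental library and the library labelled clone 5 were thus of one order, and clones 1 and 6 were far below both. In the fit the clones' spread was wider than the change, with a log2 fold change of -2.06 (SE 2.70) and an edgeR adjusted p of 0.769. Without the library labelled clone 5 the fitted value was -7.24, with an adjusted p of 0.351. TIMP3 lies inside SYN3, which is on the opposite strand and shares no exon bases with it. SYN3 had 0.398 CPM in parental cells against 0.017 in clone 1, 0.150 in labelled clone 5 and 0.020 in clone 6, the same order of libraries at a level near the floor. The neighbouring FBXO7 had 106.0 CPM in the parental library and 75.9 to 79.6 in the clones.

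The sequences before the starts of TIMP1 and TIMP3 are shown because these inhibitors stood on opposite sides of the parental level in clones 1 and 6. Both are from RefSeq (GRCh38.p14), 250 bases, 5′ to 3′ on the gene's own strand. Capitals mark TGAGTAA, a one-letter variant of the AP-1 site.
TIMP1 (chrX:47582186-47582435, plus strand): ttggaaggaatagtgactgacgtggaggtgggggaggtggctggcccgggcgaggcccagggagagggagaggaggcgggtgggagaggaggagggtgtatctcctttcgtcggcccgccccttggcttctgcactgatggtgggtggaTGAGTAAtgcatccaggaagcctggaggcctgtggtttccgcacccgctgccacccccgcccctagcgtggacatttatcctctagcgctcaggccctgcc
TIMP3 (chr22:32801455-32801704, plus strand): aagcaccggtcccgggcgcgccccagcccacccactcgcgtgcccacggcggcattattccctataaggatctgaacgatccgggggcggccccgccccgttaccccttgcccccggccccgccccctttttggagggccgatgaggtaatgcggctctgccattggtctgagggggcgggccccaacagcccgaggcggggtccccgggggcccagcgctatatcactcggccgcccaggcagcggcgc
The RefSeq start of TIMP1 lies inside the GENCODE span given above, so its window overlaps the start of that span. The window holds TGAGTAA once, its first base 101 bases before the RefSeq start and inside the GENCODE span. On either strand, these letters are in 2.21% of 35116 RefSeq promoter windows and in 1 of the 27 MMP, ADAMTS and TIMP genes with an entry. TIMP3's window holds 26 CG pairs and TIMP1's holds 12, against a median of 11 (quartiles 3 and 23) over all windows.

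The make-up of the TIMP message followed these levels. Of the summed TIMP level per kilobase, TIMP3 was 39.7% in parental cells against 0.128% in clone 1, 15.1% in labelled clone 5 and 0.219% in clone 6. TIMP1 was 46.3% in the parental library and 85.9%, 57.8% and 72% in the clones in the same order. The sum itself was not lower in any clone, at 238.9 CPM per kb in the parental library and 362.9, 444.2 and 351.9 in the clones. Set against the summed MMP level, which was 165.6 in the parental library and 145.8, 536.0 and 332.0 in the clones, the ratio of MMP to TIMP message was 0.693 in parental cells against 0.402 in clone 1, 1.21 in labelled clone 5 and 0.944 in clone 6. The clones lay on both sides of the parental ratio.

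**Figure D3:**
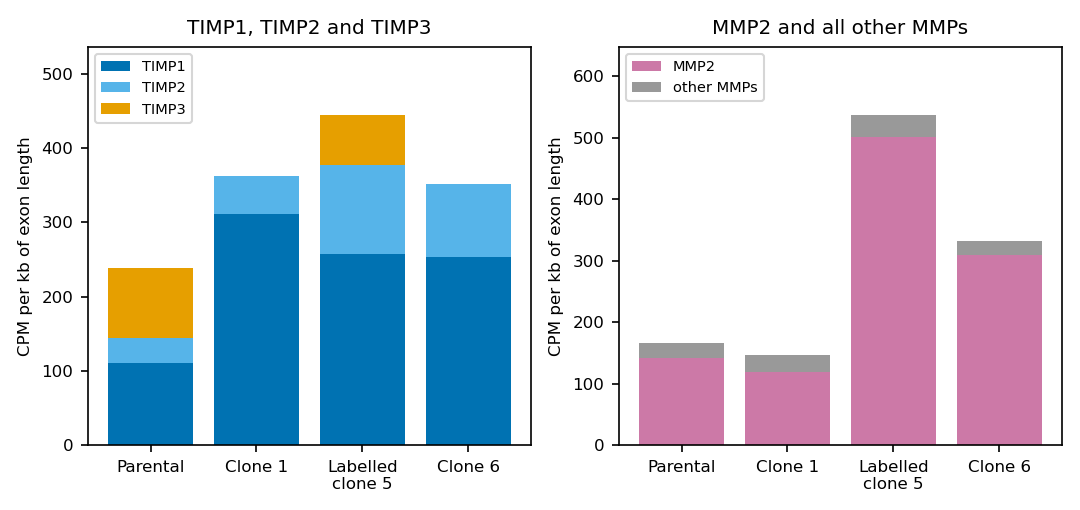
Stacked bars of CPM per kb of exon length in the 4 libraries, on the left TIMP1, TIMP2 and TIMP3 and on the right MMP2 and all other MMPs. TIMP3 takes up 39.7% of the parental TIMP bar and under 1% in clones 1 and 6, and MMP2 fills most of every MMP bar.

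The gelatinases, which digest denatured collagen and basement membrane collagen, were represented almost wholly by MMP2. MMP2 (ENSG00000087245, chromosome 16 from 55389700 to 55506691) had 701.5 CPM in parental cells against 585.6 in clone 1, 2474 in labelled clone 5 and 1523 in clone 6. It was slightly below the parental level in clone 1 and above it in the others, with log2 ratios of -0.26, 1.82 and 1.12. The clones' mean of 1528 ± 944.4 CPM (SD, n = 3) therefore overlaps the parental level, and the fitted log2 fold change was 1.12 (SE 0.81, edgeR adjusted p = 0.645). Its level over that of TIMP2, per kilobase, was 4.25 in the parental library and 2.34, 4.17 and 3.16 in the clones. MMP9 was low, with 36 counts in parental cells against 5 in clone 1, 15 in labelled clone 5 and 3 in clone 6, a fitted log2 fold change of -2.45 (SE 1.14) and an edgeR adjusted p of 0.464. An opposite-strand gene, SLC12A5-AS1, shares 18.4% of the exon bases of MMP9.

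Of the membrane-type MMPs, MMP14 was the one lower in every clone. MMP14 (ENSG00000157227, chromosome 14 from 22836557 to 22849027), the cell-surface activator of pro-MMP2, had 140 counts in parental cells against 19 in clone 1, 56 in labelled clone 5 and 44 in clone 6. All 4 libraries were thus at a low level, 1.55 CPM in the parental library and 0.166 to 0.525 in the clones. The log2 ratios were -3.22 (95% counting interval -4.0 to -2.53), -1.56 (-2.03 to -1.10) and -1.80 (-2.32 to -1.30), so that counting error alone does not span the differences. The fitted value was -2.03 (SE 0.84), with an edgeR adjusted p of 0.435 and a range of 0.203 to 0.764 over the settings, those without a clone included. MMP14 stood at the edge of the criterion, which it no longer met with 3 other scalings, with robust estimation, with a minimum of 1 CPM, or without the library labelled clone 5 or clone 6.

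Of the other membrane-type genes, MMP15, MMP16, MMP24 and MMP25 were above the parental level in every clone, and MMP17 was below it in clone 6. MMP15, a transmembrane enzyme, had 20.8 CPM in parental cells against 22.2 in clone 1, 38.4 in labelled clone 5 and 24.6 in clone 6. MMP16, of the same type, had 10.3, 12.0, 14.5 and 23.6 CPM in that order of libraries. MMP17, held by a glycolipid anchor, had 45.2, 46.9, 47.7 and 23.8 CPM, so that only clone 6 stood apart. MMP25, the other glycolipid-anchored enzyme, had 2.25, 5.60, 3.54 and 4.80 CPM, and 32.8% of its exon bases are shared with an antisense gene, MMP25-AS1. MMP24, a further transmembrane enzyme, lay between 0.974 and 3.36 CPM, and 21.8% of its exon bases are shared with opposite-strand genes. Its log2 ratio in clone 6 was 0.27, with a counting interval of -0.14 to 0.69 that spanned 0. The fitted log2 fold changes of these 5 genes were between -0.20 for MMP17 and 1.14 for MMP24, and none met the criterion.

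The collagenases and the stromelysins MMP3 and MMP10 lie with the matrilysin MMP7 in a run of 9 MMP genes on chromosome 11, in the order MMP7, MMP20, MMP27, MMP8, MMP10, MMP1, MMP3, MMP12 and MMP13, with 5989 to 67961 bases between neighbours. The neighbours MMP10, MMP1 and MMP3 were highest in clone 1, and MMP13 was highest in labelled clone 5. MMP1, the interstitial collagenase, had 494 counts in parental cells against 739 in clone 1, 292 in labelled clone 5 and 391 in clone 6, or 5.46, 6.44, 2.74 and 3.97 CPM. MMP3, stromelysin 1, lies 37641 bases from it and had 29, 450, 5 and 22 counts, so that it was high in clone 1 with a log2 ratio of 3.61 (95% counting interval 3.07 to 4.21). It was lower in labelled clone 5, with -2.77 (-4.50 to -1.39), and the interval in clone 6 spanned 0. MMP13, collagenase 3, had 95, 7, 805 and 46 counts.

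Clone 1 and labelled clone 5 changed places between MMP3 and MMP13. MMP13 was high in the library labelled clone 5, with a log2 ratio of 2.85 (2.54 to 3.17), and low in clone 1, with -4.11 (-5.46 to -3.01), and in clone 6, with -1.17 (-1.71 to -0.65). Leaving out a clone moved its fitted value between -1.97 and 1.93, and its edgeR adjusted p was 0.856. MMP10, stromelysin 2, had 52 counts in clone 1 and none in the other libraries, at least 13.7-fold higher than the parental library when 3 counts are taken as its floor. MMP7 had 3, 17, 14 and 13 counts, MMP12 had 2, 10, 11 and 29, and MMP8 had at most 2.

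**Figure D4:**
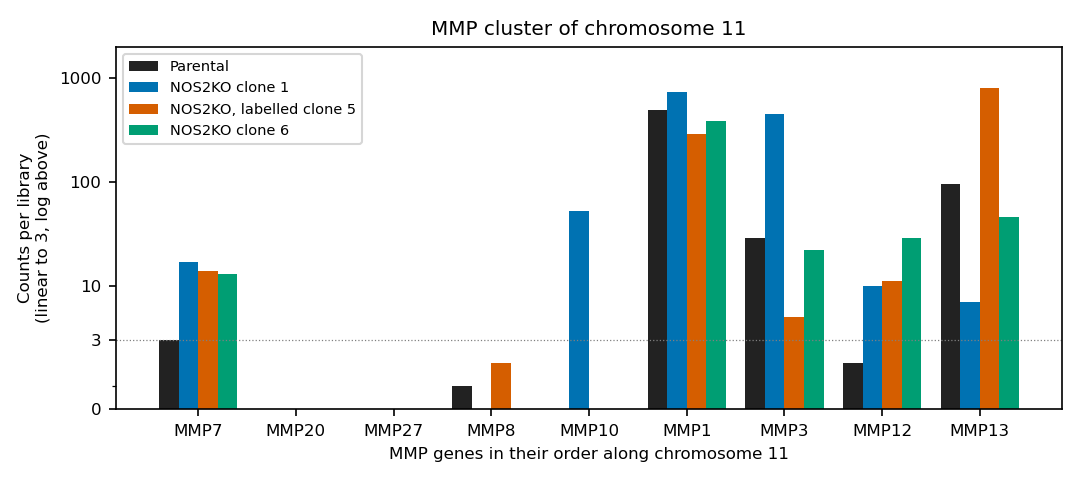
Counts of the 9 MMP genes of the chromosome 11 run, in their order along the chromosome, with 1 bar for each library. The axis is linear up to 3 counts (dotted line) and logarithmic above. The highest bar belongs to clone 1 for MMP10, MMP1 and MMP3 and to the library labelled clone 5 for MMP13.

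MMP7 and MMP10 are the genes of this run that had both an entry in the RefSeq promoter table and the AP-1-like letters TGANTCA, apart from MMP20, which had no count. They are printed with these letters in capitals, 250 bases before the start, 5′ to 3′ on the gene's strand (GRCh38.p14).
MMP7 (chr11:102530748-102530997, minus strand): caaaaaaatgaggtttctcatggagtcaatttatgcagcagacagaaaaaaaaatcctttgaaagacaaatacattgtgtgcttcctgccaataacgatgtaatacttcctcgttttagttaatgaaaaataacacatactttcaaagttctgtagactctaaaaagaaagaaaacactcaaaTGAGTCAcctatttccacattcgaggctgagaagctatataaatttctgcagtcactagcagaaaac
MMP10 (chr11:102780629-102780878, minus strand): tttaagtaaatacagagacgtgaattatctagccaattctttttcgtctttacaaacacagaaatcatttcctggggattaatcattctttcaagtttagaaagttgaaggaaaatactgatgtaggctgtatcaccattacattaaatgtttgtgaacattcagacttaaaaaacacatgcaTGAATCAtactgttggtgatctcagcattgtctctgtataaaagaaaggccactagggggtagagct
In both windows the letters begin 67 bases before the start and a TATAAA stands between them and the start. TGANTCA was found in 4 of the 27 genes with an entry (the fourth is ADAMTS12) and in 6.57% of all windows, and its reverse complement has the same form. TATAAA, searched on the gene's own strand, was found in 6 of 27 and in 6.8% of all windows. MMP7 and MMP10 share the letters but not the pattern over libraries, since MMP7 was counted in every library and MMP10 in clone 1 alone.

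MMP26, matrilysin 2, which lies elsewhere on chromosome 11, had 117 counts in clone 1 and none in the other libraries, at least 30.7-fold higher than the parental floor of 3 counts. Its DESeq2 adjusted p of 0.00171 rests on clone 1 alone, and its edgeR adjusted p was 0.631. MMP11, stromelysin 3, which cleaves few matrix proteins, had 2.09 CPM in parental cells against 0.637 in clone 1, 16.6 in labelled clone 5 and 13.2 in clone 6. MMP19 had 4.67, 3.41, 15.1 and 14.2 CPM. Both were thus below the parental level in clone 1 and above it in the other clones, as MMP2 was. Opposite-strand genes share 18.6% of the exon bases of MMP11 and 17.4% of those of MMP19, and the strand setting of the counting was not given in the sources used here.

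The ADAMTS proteases that cleave hyalectans, the large proteoglycans such as versican, included ADAMTS15 and ADAMTS1, the genes of the 46 with the highest log2 ratios among those past 1 in every clone. ADAMTS15 (ENSG00000166106, chromosome 11 from 130448974 to 130476641) had 222 counts in parental cells against 5145 in clone 1, 5010 in labelled clone 5 and 2988 in clone 6. This is 2.46 CPM against 44.9, 47.0 and 30.3, so that the clones, at 40.7 ± 9.08 CPM (SD, n = 3), lay close together and far above the parental library. The log2 ratios were 4.19 (95% counting interval 4.0 to 4.39), 4.26 (4.06 to 4.46) and 3.63 (3.43 to 3.83). The fitted log2 fold change was 4.05 (SE 0.37) and stayed between 3.95 and 4.23 when a clone was left out. The adjusted p was 0.259 with edgeR and 2.36e-13 with DESeq2, and the highest over the settings, those without a clone included, was 0.726. Its neighbour ADAMTS8, 19981 bases away, had at most 5 counts in any library.

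ADAMTS1 (ENSG00000154734, chromosome 21 from 26835747 to 26845409) had 16.1 CPM in parental cells against 97 in clone 1, 99.3 in labelled clone 5 and 418.5 in clone 6. Every clone was above the parental library, and clone 6 was the highest, with log2 ratios of 2.59 (2.51 to 2.67), 2.62 (2.54 to 2.70) and 4.70 (4.62 to 4.77). The fitted log2 fold change was 3.67 (SE 0.98), with an adjusted p of 0.397 by edgeR and 0.00585 by DESeq2. ADAMTS5, which lies 72503 bases away and is a major enzyme of aggrecan breakdown, had 11 counts in parental cells against 423 in clone 1, 503 in labelled clone 5 and 17 in clone 6. It was thus high in clones 1 and labelled 5 (log2 ratios 4.92 and 5.28) and near the parental level in clone 6 (0.50, interval -0.68 to 1.74), where ADAMTS1 was highest. Its edgeR adjusted p was 0.499.

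ADAMTS9, which also cleaves versican, had 67.6 CPM in parental cells against 23.1 in clone 1, 77.0 in labelled clone 5 and 116.6 in clone 6, with no shift common to the clones (edgeR adjusted p = 0.975). ADAMTS4 was low, with 8, 29, 51 and 79 counts, and was higher in each clone (log2 fold change 2.51, SE 0.93, edgeR adjusted p = 0.456). Of the 6 tested genes of this role, 6 had a fitted value above 0, beside 54.4% of all tested genes. The criterion was met by 2 that were higher, beside 4.24%. Their median log2 fold change was 3.09, against 0.10 for all tested genes. These values are descriptions only, since ADAMTS4 passed the filter only through clones. ADAMTS9 and ADAMTS20 went both ways, since ADAMTS9 was -0.43 without clone 6, and ADAMTS20 was above the parental level in labelled clone 5 alone and -2.60 without it.

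The procollagen N-proteinases, which trim the amino-terminal propeptide from fibrillar procollagens, differed between clones. ADAMTS2 (ENSG00000087116, chromosome 5 from 179110851 to 179345430) had 40.6 CPM in parental cells against 112.8 in clone 1, 14.0 in labelled clone 5 and 8.11 in clone 6. It was above the parental level in clone 1, with a log2 ratio of 1.47 (1.42 to 1.53), and below it in the others, with -1.54 and -2.32, so that the fitted value was 0.15 (SE 1.53, edgeR adjusted p = 0.979). ADAMTS3, the main enzyme for procollagen II, had 1.77, 2.45, 3.05 and 5.70 CPM. ADAMTS14 had 6.25, 4.26, 10.2 and 12.1 CPM.

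ADAMTS7 and ADAMTS12, which cleave the cartilage protein COMP, were highest in labelled clone 5 and clone 6. ADAMTS7 (ENSG00000136378, chromosome 15 from 78759203 to 78811431) had 19.3 CPM in parental cells against 15.9 in clone 1, 235.4 in labelled clone 5 and 175.1 in clone 6. Its log2 ratios were -0.28 (-0.37 to -0.18), 3.61 (3.54 to 3.68) and 3.18 (3.11 to 3.25), with a fitted value of 2.88 (SE 1.34, edgeR adjusted p = 0.546). Pseudogene copies of ADAMTS7 had at most 186 counts in a library, and reads may have been split between them and the gene. ADAMTS12 had 71.5 CPM in parental cells against 74.5 in clone 1, 152.5 in labelled clone 5 and 180.0 in clone 6, a fitted log2 fold change of 0.92 (SE 0.55) and an edgeR adjusted p of 0.576.

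The remaining ADAMTS genes were mostly below 10 CPM. ADAMTS17 (ENSG00000140470, chromosome 15 from 99971589 to 100342005), a protease required for normal connective tissue with no well-defined target, was lower in every clone, with 102 counts in parental cells against 43 in clone 1, 14 in labelled clone 5 and 18 in clone 6. The log2 ratios were -1.59, -3.10 and -2.63, the fitted value was -2.29 (SE 0.84), and the edgeR adjusted p was 0.392, with a range of 0.143 to 0.764 over the settings, those without a clone included. It no longer met the criterion with a minimum of 1 CPM or without the library labelled clone 5 or clone 6. ADAMTS6, linked to fibrillin microfibrils, had 15.5, 9.42, 17.3 and 21.5 CPM. ADAMTS10, of the same group, had 2.16, 0.567, 7.04 and 1.87 CPM. ADAMTS16 had 2.57, 4.53, 5.57 and 1.97 CPM, and ADAMTS13, the von Willebrand factor protease, had 4.34, 0.724, 8.05 and 7.55. None of these was on one side of the parental library in every clone.

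The genes not yet given were low in every library. MMP28 lay between 0.061 and 1.43 CPM. ADAMTS20, which is related to ADAMTS9, had 2 to 110 counts. ADAMTS18, ADAMTS19, MMP21 and MMP23B had at most 20 counts in a library.

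The clones also differed from each other in many of these genes. Clone 1 and the library labelled clone 5 differed by more than a log2 ratio of 1 in 18 of 30 genes (60.0%), beside 23.4% of all genes. Clone 1 and clone 6 did so in 18 of 27 genes (66.7%), beside 22.2%, and the library labelled clone 5 and clone 6 in 9 of 28 (32.1%), beside 10.6%. MMP2, MMP11, MMP19, ADAMTS7 and ADAMTS12 were among those that set clone 1 apart from both other clones, and TIMP3, MMP13, MMP28, MMP17, ADAMTS1, ADAMTS5, ADAMTS10, ADAMTS16 and ADAMTS20 were those that separated the last pair. These shares carry no test, and 1 library stands for each clone.

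The genes that activate, hold or serve these enzymes were taken from lists of the pathway. Of 15 tested genes of activation and cell-surface control, 1 was higher and 2 were lower by the criterion. Of all tested genes, 4.24% were higher and 5.34% were lower by it. RECK, a membrane-anchored inhibitor of MMPs, had 6.16 CPM in the parental library and 16.2, 29.1 and 40.2 in the clones (log2 fold change 2.21, SE 0.56, edgeR adjusted p = 0.356). CLDN1, a tight-junction claudin that can aid the activation of pro-MMP2, was lower at 136.8 CPM in the parental library and 5.55, 5.96 and 0.964 in the clones (log2 fold change -5.04, SE 0.99, adjusted p = 0.289). ADAM17, the sheddase that TIMP3 inhibits, was lower at 79.7 CPM against 31.4, 47.1 and 37.6 (adjusted p = 0.365). Of 7 tested ADAMTS-like genes, which encode related proteins with no protease domain, ADAMTSL2 was higher and THSD4 lower by the criterion. Beside them stand the same shares of all tested genes.

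Of 15 tested substrates, 4 were higher and 2 were lower by the criterion, which 4.24% and 5.34% of all tested genes met. VCAN, the versican that ADAMTS1 and ADAMTS15 cleave, had 52.5 CPM in parental cells against 328.9 in clone 1, 313.5 in labelled clone 5 and 357.7 in clone 6. The clones lay close together at about the same height, and the log2 fold change was 2.67 (SE 0.29), with an adjusted p of 0.259 by edgeR and 2.79e-11 by DESeq2. THBS1, SPARC and COL1A2 were the other 3 that were higher, with THBS1, a matricellular protein, at 69 CPM in the parental library and 550.1, 3302 and 1192 in the clones. COL1A2 was low in every library, with 10 counts in the parental library and 50, 101 and 70 in the clones. BCAN and NCAN, hyalectans of the nervous system, were lower at low levels, BCAN with 4.24 CPM in the parental library and 0.453 to 0.675 in the clones. Of 12 AP-1 and ETS factors known at MMP promoters, JUN was higher by the criterion and ETV4 and ETV5 were lower. Beside them stand the same 4.24% and 5.34% of all tested genes. JUN had 107.8 CPM in the parental library and 398.3, 234.4 and 328.2 in the clones. ETV4, an ETS factor, had 82.2 CPM in the parental library and 21.1, 12.3 and 13.4 in the clones. No gene of these 4 lists had an edgeR adjusted p under 0.05, although 14 of the 49 tested had an unadjusted p under it, a level that 11.5% of all tested genes reached. By DESeq2, for which 3.13% of all genes were called higher and 3.05% lower, 11 genes had an adjusted p under 0.05, CLDN1 and RECK of activation and control, BCAN, VCAN, SPARC and THBS1 of the substrates, and JUN, FOS, FOSB, ETV4 and ETV5 of the factors. The lists' median log2 fold changes of 0.37 (activation and control), 0.78 (ADAMTS-like), 0.27 (substrates) and 0.22 (factors) stand beside 0.10 for all tested genes.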

How the data were processed

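RNA of 4 libraries was measured by paired-end RNA-sequencing of poly(A)-enriched mRNA. The deposited values are unnormalized read counts, made by the authors, for each gene. The submitters' processing notes name bcl2fastq 2.17, Trimmomatic 0.36, STAR 2.5.2b, featureCounts of Subread 1.5.2, DESeq2 and GRCh38, and the strand setting and annotation release were not given in the sources used here. Multi-mapping and antisense reads could therefore shift single genes. Symbols and coordinates came from GENCODE release 29 (56898 of 57500 identifiers matched, 54749 with the same coordinates, and all 46 genes described here).

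Counts were fitted over all genes with edgeR 4.0.16 in R 4.3.3 (filterByExpr, TMM, glmQLFit and glmQLFTest, 2 residual and 2.75 prior degrees of freedom), with Benjamini-Hochberg adjustment over 22511 genes. DESeq2 1.42.0 was an alternative, beside other scalings, filters, thresholds, a prior count of 2 in place of 0.125, robust and bias-adjusted estimation and each clone left out. The 3 clones are separate lines, each sequenced once. The edgeR and DESeq2 p-values therefore set the difference from the parental library against the spread between these clones, moderated over genes. The same spread was assumed for the parental cells. Ratios carry exact Clopper-Pearson 95% intervals, which like the floor of 3 counts cover counting error only. The test was also run on simulated data. That run had a pass condition only at a spread below the one fitted here, and no result rests on it. Tables, intervals and plots were made in Python 3.11.15 (pandas 2.3.3, numpy 2.4.6, matplotlib 3.10.9, scipy 1.17.1).

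The genes and lists were chosen with earlier results of these data known. Values in all libraries were given for genes that reached 5 CPM, as were those below it that met the criterion and 4 others (MMP3, MMP9, ADAMTS5 and MMP26). MMP7, MMP8, MMP10, MMP12, ADAMTS4 and ADAMTS8 were added after their values were seen. The pathway lists held 16 genes of activation and control, 8 symbols of ADAMTS-like genes (7 found), 18 substrates and 12 factors. A further 14 cell type markers checked the labels. Of 13 tested, 1, PTPRC, met the criterion as higher, beside 4.24% of all tested genes. Promoter windows came from RefSeq.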

Additional observations from a re-analysis of the deposited data

How the results depend on the processing

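The 3 genes that were higher and met the criterion (ADAMTS1, ADAMTS15 and TIMP1) became 8 with DESeq2, which added ADAMTS4, ADAMTS5, ADAMTS7, MMP26 and TIMP2, and 3 to 10 when a clone was left out. The 2 lower genes became 1, ADAMTS17, with RLE, upper quartile or library size scaling and with robust estimation, 0 with a minimum of 1 CPM, and 0 to 3 when a clone was left out. The 0 genes with an adjusted p under 0.05 became 4 with DESeq2. Calls over all genes moved too. Of 22511 tested genes, 955 were higher by the criterion in the main fit and 1591 with DESeq2. An adjusted p under 0.05 was reached by 1 and by 1095. The lower calls over all genes were 1202 in the main fit, 1002 to 1201 with the other scalings and robust estimation, and 914 with a minimum of 1 CPM. The 3 genes more than doubled in every clone became 5 at a threshold of 1.5-fold, with MMP25 and TIMP2 added, and 4 to 9 when a clone was left out. The 2 genes below -1 in every clone became 0 with a minimum of 10 CPM and 2 to 5 when a clone was left out. For the threshold of 1.5-fold and the minimum of 10 CPM no share of all genes was taken. Those counts are therefore descriptions only. With fewer clones or a higher minimum, fewer samples or genes enter by construction, and a lower threshold lets more genes pass by construction. Otherwise the cause was not tested. For single genes, 418 of the fitted values kept their direction and side of the threshold, 18 newly passed it, 10 no longer did and 10 changed sign, all of these when a clone was left out and none of them for a gene that met the criterion. Without labelled clone 5 the sign turned for ADAMTS13 (-0.041 to 0.85 over the clones left out), MMP13 (-1.97 to 1.93), ADAMTS10 (-0.80 to 1.05) and ADAMTS20 (-2.60 to 1.00), without clone 6 for ADAMTS6 (-0.21 to 0.33), ADAMTS9 (-0.43 to 0.52) and MMP17 (-0.34 to 0.068), and without clone 1 for MMP23B (-0.072 to 0.31), ADAMTS2 (-1.87 to 0.65) and MMP3 (-1.24 to 2.70). Upper quartile scaling moved the median log2 fold change of all genes from 0.10 to 0.20. Genes under 3 counts per library were not resolved at this depth. No paired analysis was possible because the parental cells have 1 library.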
